A study of Mus musculus with 6 samples.

Results

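Hr, the gene of the nuclear receptor corepressor Hairless, was described together with 4 nuclear receptor genes whose products Hairless is known to bind: Vdr, Rora, Thra and Thrb. The 5 genes were taken by symbol from a table of 54838 genes. They were chosen because Hr is much higher after fenofibrate, so the comparison of fenofibrate with control is given for these 5 genes as a description, with no test. Fenofibrate lowers blood lipids, and its acid form activates the nuclear receptor PPARα. RNA was sequenced from cultured mouse B16F10 melanoma cells, a line of pigmented skin tumour cells, treated with fenofibrate at 50 µM (n = 3 libraries) and from control cells (n = 3). The duration of treatment and the vehicle of the control cells are not given in the sources used here. The cell line field names B16F10 only for control replicate 1 and numbers the line upward from library to library. Read literally, each library would be a line of its own, and the effects of line and treatment cannot be told apart.

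Hairless binds no hormone. It docks on receptors such as the vitamin D receptor (Vdr), the orphan receptor RORα (Rora) and the thyroid hormone receptors (Thra and Thrb), and brings in histone deacetylases that silence their target genes. It also carries a JmjC domain, the fold of histone demethylases of the KDM3 family. In skin, Hr and Vdr are both needed for the hair follicle to cycle, and mice without Hr lose their coat. In the developing rat brain, Hr is itself a gene that thyroid hormone switches on.

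The coding stretches below, shown for the DNA-reading part of each receptor and for the leucine motifs of Hairless, were read from the mouse transcripts of GENCODE M21 (GRCm38). The receptors hold DNA with a zinc finger module, in which a short segment called the P box reads the bases of the binding site. Each receptor had 1 P box, whose 18 coding bases are in capitals here, with 15 bases on each side.
Vdr: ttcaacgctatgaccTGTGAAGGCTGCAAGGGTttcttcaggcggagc
Rora: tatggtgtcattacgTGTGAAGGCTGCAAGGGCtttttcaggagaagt
Thra: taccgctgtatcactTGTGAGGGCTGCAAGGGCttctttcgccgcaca
Thrb: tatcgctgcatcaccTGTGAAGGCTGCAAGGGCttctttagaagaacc
The P boxes were found by searching for the residues CEGC, then K or R, then G, so their near match was set by the search. All the P boxes code for the same residues, CEGCKG, and differ only in the bases that spell them. The P box bases of Rora and Thrb were identical, and those of the other pairs matched at 16 or 17 of 18 bases. Over the 48 bases shown, Thra and Thrb shared 39, the most of the 6 pairs, and Rora and Thra shared 31, the fewest. Hairless was not searched for a P box. Its coding sequence of 3633 bases holds 2 leucine motifs of the kind through which it is known to bind RORα, a leucine, any pair of residues and then a pair of leucines. Their codons are in capitals in these stretches, which begin at bases 1753 and 2329 of the coding sequence.
Hr motif 1: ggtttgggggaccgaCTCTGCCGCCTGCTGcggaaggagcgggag
Hr motif 2: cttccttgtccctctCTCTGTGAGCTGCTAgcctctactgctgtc

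The libraries held 13540038 to 14710856 counts with fenofibrate and 13594939 to 14072673 in control, and 3 counts, the limit that a count of 0 leaves, equal 0.204 to 0.222 CPM, which scales each count by its library's total (counting error only). With edgeR's quasi-likelihood test, 39.1% of 13629 genes were called at an adjusted p under 0.05, 19.5% higher and 19.5% lower with fenofibrate. That is 2664 genes higher and 2662 lower, and with scaling to library totals alone 2180 higher and 3280 lower. The median log2 fold change of all tested genes was -0.002. All 7 melanocyte markers were counted in every group, with a summed level of 26030 to 27580 CPM with fenofibrate and 21210 to 22590 CPM in control, and 5 of them passed the test as higher. Markers of keratinocytes and hair follicle, where Hr is best known, were close to absent. Of these 8 genes, 7 had 0 counts in all 6 libraries, and the summed level was at most 0.068 CPM with fenofibrate and 0.142 CPM in control. Of 5 leukocyte markers, Ptprc had 24 counts with fenofibrate and 0 in control, and the list summed to 0.665 to 0.696 CPM with fenofibrate and 0 to 0.221 CPM in control. The 5 fibroblast markers summed to 1.04 to 1.33 CPM with fenofibrate and 1.71 to 3.53 CPM in control, while the ranges of 3 endothelial and 4 neural markers overlapped and stayed under 7 CPM. The part of these cells in the results was not tested. In such bulk libraries, fewer cells of a type and less RNA per cell cannot be told apart.

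Hr (ENSMUSG00000022096, chromosome 14, 70552212 to 70573548, plus strand, GRCm38) was a weakly expressed gene in control cells and a moderately expressed one after fenofibrate. It was counted 1388, 1458 and 1372 times in the fenofibrate libraries and 85, 95 and 95 times in the control libraries. Per length, its level was 9.64, 9.55 and 8.77 FPKM with fenofibrate, against 0.588, 0.635 and 0.657 FPKM in control. Every fenofibrate library stood far above every control library, and the spread within each group was small, with a coefficient of variation of 5.06% with fenofibrate and 5.95% in control. The mean was 101.1 ± 5.11 normalised CPM with fenofibrate and 6.55 ± 0.389 in control (SD, n = 3 each), where normalised CPM uses library totals scaled by TMM. This is 15.4-fold higher, a log2 fold change of 3.95 ± 0.08 (SE), the change that chose these genes and rank 17 from the top among 13629. On log2(FPKM + 0.5), where the pseudocount is close to the control level, the difference was 3.12. Within a library, Hr had a higher FPKM than 66.5% to 68.8% of the tested genes with fenofibrate and than 11.1% to 12.2% in control. Its exons overlap no other annotated gene, so that its counts do not mix with those of an antisense partner.

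**Figure D1:**
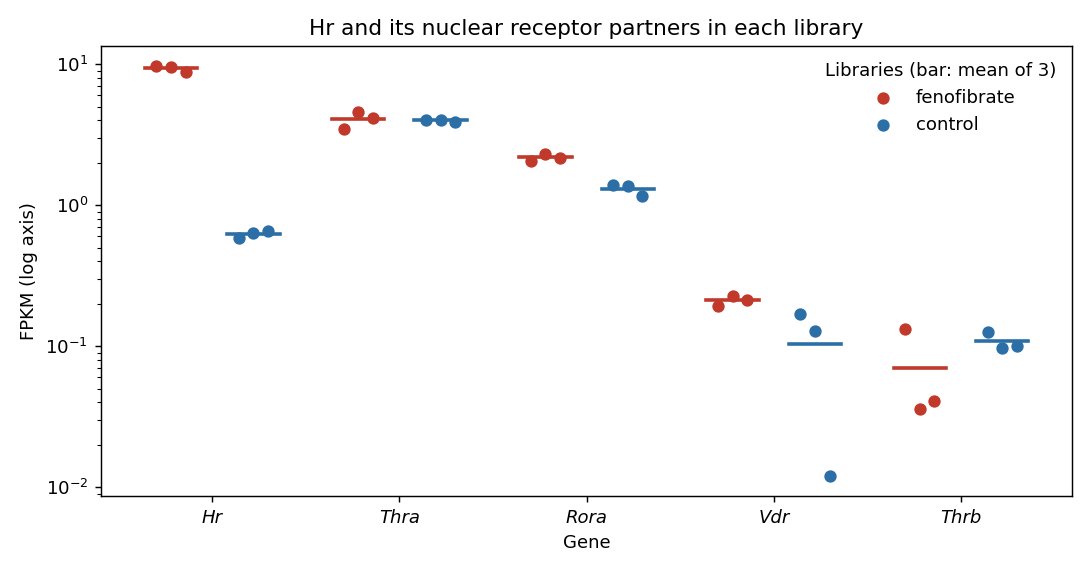
FPKM of Hr, Thra, Rora, Vdr and Thrb on a log axis, with a point for each library and a bar at the mean of 3. Hr sits at 8.77 to 9.64 FPKM in the fenofibrate libraries and at 0.588 to 0.657 in control, while the points of Thra overlap between groups and those of Vdr and Thrb lie below 0.25.

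Rora (ENSMUSG00000032238, chromosome 9, 68653786 to 69388246, plus strand), an orphan receptor that activates genes of the circadian clock and of lipid metabolism, was the receptor that stood apart most clearly between groups. It was counted 416, 496 and 476 times with fenofibrate and 279, 285 and 234 times in control. Its FPKM was 2.07, 2.32 and 2.18 with fenofibrate, against 1.38, 1.36 and 1.16 in control. The lowest fenofibrate library was above the highest control library. The mean was 33.2 ± 1.87 normalised CPM with fenofibrate and 18.98 ± 1.74 in control (SD, n = 3 each), 1.75-fold higher (log2 fold change 0.81 ± 0.09 SE). Rora shares 82 exon bases with the antisense gene Gm15511, which had 0 counts in both groups.

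Thra (ENSMUSG00000058756, chromosome 11, 98740638 to 98769006, plus strand) encodes the thyroid hormone receptor α and is the most expressed receptor of the 4. It was counted 273, 386 and 358 times with fenofibrate and 318, 332 and 309 times in control. Its FPKM was 3.46, 4.61 and 4.18 with fenofibrate, against 4.02, 4.05 and 3.90 in control. The control libraries were close together, and the fenofibrate libraries lay on both sides of them, 2 above and 1 below all 3. The log2 fold change was 0.09 ± 0.11 (SE), and without fenofibrate replicate 2 it was -0.004, so these libraries give no direction for Thra. The 3′ end of Thra faces Nr1d1 on the opposite strand, and their exons share 263 bases. As the strand setting of the counting is not given in the sources used here, reads from those bases cannot be assigned to either gene. Nr1d1 encodes the clock repressor REV-ERBα, and its counts were 80, 94 and 94 with fenofibrate against 193, 259 and 223 in control.

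Vdr and Thrb were barely counted, and their values rest on few reads. Vdr (ENSMUSG00000022479, chromosome 15, 97854425 to 97910630, minus strand), the receptor for the active form of vitamin D, had 16, 20 and 19 counts with fenofibrate and 14, 11 and 1 in control. All 3 fenofibrate libraries were above all 3 controls, and control replicate 3, with its single count, widened the difference. The log2 fold change was 1.08 ± 0.55 (SE), and 0.56 without control replicate 3. Vdr reached 10 counts in 3 fenofibrate and 2 control libraries, so it entered the test with the help of the group where it was higher. Thrb (ENSMUSG00000021779, chromosome 14, 17660261 to 18038090, plus strand), the thyroid hormone receptor β, had 21, 6 and 7 counts with fenofibrate and 20, 16 and 16 in control. Fenofibrate replicate 1 was above every control and the other fenofibrate libraries were below, so the groups overlap. Thrb had a log2 fold change of -0.59 ± 0.49 (SE), and -1.42 without fenofibrate replicate 1. It reached 10 counts in 1 fenofibrate and 3 control libraries, so it entered the test with the help of the control group, where its mean was higher.

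In 3 of the 5 genes, Hr, Rora and Vdr, the 3 values of each group did not overlap, as was the case for 53.3% of all tested genes. Since the genes were chosen on this contrast, nothing is read from that count. All 5 genes passed the filter on low counts.

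The order of the 5 genes by FPKM differed between the groups in the place of Hr and in that of Vdr and Thrb. With fenofibrate it was Hr (9.32 ± 0.477), Thra (4.08 ± 0.581), Rora (2.19 ± 0.128), Vdr (0.211 ± 0.0172) and Thrb (0.0700 ± 0.0548), and no neighbours in this order had overlapping values (mean ± SD, n = 3). In control it was Thra (3.99 ± 0.0780), Rora (1.299 ± 0.124), Hr (0.627 ± 0.0353), Thrb (0.108 ± 0.0157) and Vdr (0.103 ± 0.0813), where only the last pair overlapped. Using the merged exon length in place of the authors' length, which was 1.08 to 1.57 times as long, gave the same order in each group. By that length Hr averaged 14.3 FPKM with fenofibrate and 0.963 FPKM in control.

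The level of Hr was also set against that of its partners. The 4 receptors together summed to 5.85, 7.20 and 6.61 FPKM with fenofibrate and 5.69, 5.64 and 5.17 FPKM in control. The lowest fenofibrate sum was just above the highest control sum, in FPKM without TMM scaling. The FPKM of Hr divided by that sum was 1.65, 1.33 and 1.33 with fenofibrate, against 0.103, 0.113 and 0.127 in control. Hr thus made up 57.0% to 62.2% of the summed FPKM of the 5 genes with fenofibrate and 9.37% to 11.3% in control. The ratio of Hr to Rora alone was 4.03 to 4.67 with fenofibrate and 0.426 to 0.568 in control. These are ratios of RNA levels and say nothing of protein.

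**Figure D2:**
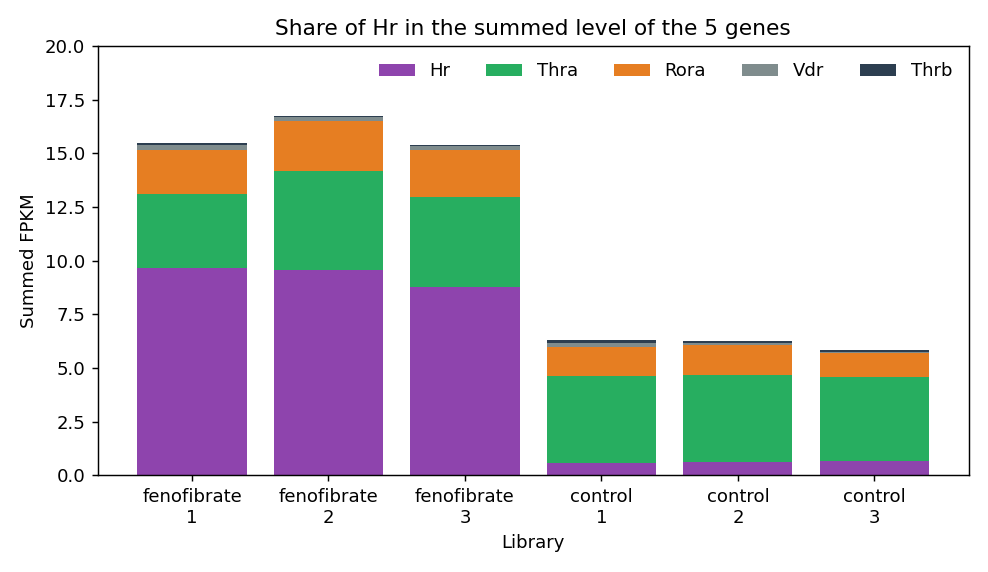
Summed FPKM of the 5 genes in each library, stacked by gene. The Hr segment takes 57.0% to 62.2% of the bar in the fenofibrate libraries and 9.37% to 11.3% in control, while the 4 receptors sum to 5.17 to 7.20 FPKM in all 6 libraries.

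Of the other listed corepressors and deacetylases of nuclear receptors, more were called lower than higher. Of 15 tested, 1 was higher, 8 were lower and 6 did not pass, with a median log2 fold change of -0.20. Over all tested genes the median was -0.002, and 19.5% were higher, 19.5% lower and 39.1% called in either direction. The list was chosen with earlier results of these data known, so nothing is read from these counts. Hdac7, a class IIa deacetylase, fell to 11.5 ± 1.20 normalised CPM with fenofibrate, against 23.4 ± 1.29 in control (SD, n = 3 each), which is 2.03-fold lower (adjusted p = 0.000269, edgeR). Sin3a, the scaffold of a deacetylase complex, was 1.69-fold lower (adjusted p = 0.000592, edgeR) and Hdac4 1.34-fold lower (adjusted p = 0.00285, edgeR). Ncor1, the large corepressor that binds unliganded thyroid hormone receptors, was 1.26-fold lower (adjusted p = 0.00073, edgeR). The deacetylases Hdac1, Hdac3 and Hdac5, which Hairless is known to bind, did not pass, with log2 fold changes of -0.07, 0.05 and -0.16. The 1 gene called higher, Sin3b (1.15-fold, adjusted p = 0.0445, edgeR), did not pass under 11 of 12 alternatives, with adjusted p values up to 0.147. Ncor1, Hdac1, Hdac3 and Hdac5 were named after their values were seen. Hdac4 shares 3536 exon bases with the antisense gene Gm26720, and Sin3a and Hdac7 share 213 and 29 with opposite-strand genes.

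Of the other KDM3 genes, Jmjd1c rose to 253.3 ± 15.9 normalised CPM with fenofibrate, against 133.5 ± 6.94 in control (SD, n = 3 each). That is 1.90-fold (adjusted p = 4.35e-05, edgeR), with every fenofibrate library above every control. Kdm3b was 1.28-fold lower (adjusted p = 0.0051, edgeR) and shares 3468 exon bases with the antisense gene Gm26538. Kdm3a had a log2 fold change of 0.22 ± 0.11 (SE) and did not pass (adjusted p = 0.134, edgeR).

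Coactivators, which take the place of corepressors when a receptor binds its ligand, were called in both directions. Of 8 tested, 1 was higher, 3 were lower and 4 did not pass, with a median log2 fold change of -0.08. Over all tested genes 19.5% were higher and 19.5% lower, and with so few coactivators nothing is read from these counts. Ep300, a histone acetyltransferase, rose 1.24-fold (adjusted p = 0.00996, edgeR), and the arginine methyltransferase gene Carm1 was 1.41-fold lower (adjusted p = 0.00117, edgeR). Ncoa6 and Ncoa2 were 1.24-fold and 1.18-fold lower, with adjusted p values of 0.0453 and 0.0218 (edgeR). Only Ep300 and Carm1, 2 of the 4, passed without fenofibrate replicate 2, without fenofibrate replicate 3, without control replicate 1 or without control replicate 2. Carm1 shares 1025 exon bases with Yipf2 on the opposite strand, and Ep300 shares 54 with Gm23880 on the same strand.

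The related receptors are given gene by gene, with no count over the list, because the list was shortened after its values were known. Rxra, the dimer partner of Vdr and of the thyroid hormone receptors, had 78.7, 78.2 and 86.2 normalised CPM with fenofibrate and 124.9, 132.4 and 126.7 in control. It was lower in every fenofibrate library, 1.58-fold on average (adjusted p = 0.000143, edgeR). Nr1d1, whose product competes with RORα for the same DNA elements and represses there, had 6.04, 6.66 and 6.53 normalised CPM with fenofibrate, against 13.9, 18.1 and 16.2 in control. It was 2.50-fold lower (adjusted p = 0.000238, edgeR). Rxrb and Nr1d2 did not pass, with log2 fold changes of -0.14 and -0.10. Rxrg had 1 count with fenofibrate and 2 in control, and Rorb had 0 with fenofibrate and 1 in control, so neither was tested.

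Of 11 known ROR targets, 4 were tested with edgeR, of which 2 were higher, 0 were lower and 2 did not pass (median log2 fold change 0.58), against 19.5% higher and 19.5% lower over all tested genes. With so few targets tested, nothing is read from these counts. Among the 4 tested, the count of lower targets was also 0 at an unadjusted p under 0.05, with DESeq2 and with limma. Nr1d1, 2.50-fold lower as given above, was placed among the related receptors and not on this list, so that count does not cover it. Arntl, the clock activator BMAL1 and a gene that ROR receptors activate and REV-ERB receptors repress, had 32.1, 29.3 and 26.9 normalised CPM with fenofibrate. Its control values were 12.1, 14.02 and 11.02, so the groups were apart. Arntl rose 2.37-fold (adjusted p = 0.000197, edgeR) and Nfil3, a repressor in the output of the clock, rose 2.29-fold (adjusted p = 0.000289, edgeR). Arntl shares 33 exon bases with Gm45355 on the opposite strand. Clock and Cry1 did not pass, with log2 fold changes of -0.04 and -0.10. The 7 others, mostly liver genes, had at most 9 counts with fenofibrate and at most 2 in control.

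The genes of thyroid hormone supply and response are likewise given singly, as their list was shortened in the same way. Klf9, a zinc finger factor gene that thyroid hormone induces in brain, rose 1.47-fold (adjusted p = 0.0026, edgeR). Bcl3 rose 1.92-fold from a low level (5.30 ± 0.675 normalised CPM with fenofibrate, 2.76 ± 0.128 in control, SD, n = 3 each, adjusted p = 0.00338, edgeR). Me1, the cytosolic malic enzyme gene, was called 1.66-fold higher (adjusted p = 0.0284, edgeR), but it passed under only 4 of 12 alternatives, with adjusted p values up to 0.0928. It did not pass in 5 of 6 fits that left out 1 library. The exception was the fit without fenofibrate replicate 2 (log2 fold change 0.97). Me1 also did not pass with no filter on low counts or with limma on FPKM at either pseudocount. Bcl3 and Me1 share 161 and 30 exon bases with opposite-strand genes. The genes that make or break down active thyroid hormone were hardly counted. Dio1 and Dio3 had 0 counts in all libraries, and Dio2 had 17 with fenofibrate and 15 in control. Thrsp, a liver target, had 31 counts with fenofibrate and 19 in control (adjusted p = 0.283, edgeR).

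Of 20 genes of vitamin D metabolism and response, 7 were tested, of which 1 was higher, 1 was lower and 5 did not pass. Their median log2 fold change was 0.10. Over all tested genes 19.5% were higher and 19.5% lower, and with so few tested here nothing is read from these counts. Cyp24a1, the vitamin D breakdown enzyme gene and the most sensitive known VDR target, had 4 counts with fenofibrate and 0 in control. All 4 fell in fenofibrate replicate 1. Cyp27b1, which makes the active hormone, had 93 counts with fenofibrate and 77 in control and did not pass (adjusted p = 0.5, edgeR). Cdkn1a and Spp1, known targets in several cell types, had log2 fold changes of 0.10 and 0.12 and did not pass (adjusted p = 0.0885 and 0.62, edgeR). Cubn, part of the receptor that takes up the vitamin D carrier in kidney, was 1.41-fold lower (adjusted p = 0.00194, edgeR). Slc37a2 was called 2.00-fold higher (adjusted p = 0.0329, edgeR), and this call was lost under 8 of 12 alternatives (adjusted p up to 0.0999). Those include leaving out fenofibrate replicate 1 or 2 or control replicate 1 or 3. Cubn and Slc37a2 share 368 and 241 exon bases with opposite-strand genes. The vitamin D list had 1 called gene without fenofibrate replicate 2, without control replicate 1 or without control replicate 3. It had 0 higher and 2 lower with no filter on low counts, with the replicate block or without fenofibrate replicate 1. Sostdc1 and Dkkl1, genes that are raised in the skin of mice without Hr, had 0 counts in all 6 libraries, so their repression could not be looked at here.

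**Figure D3:**
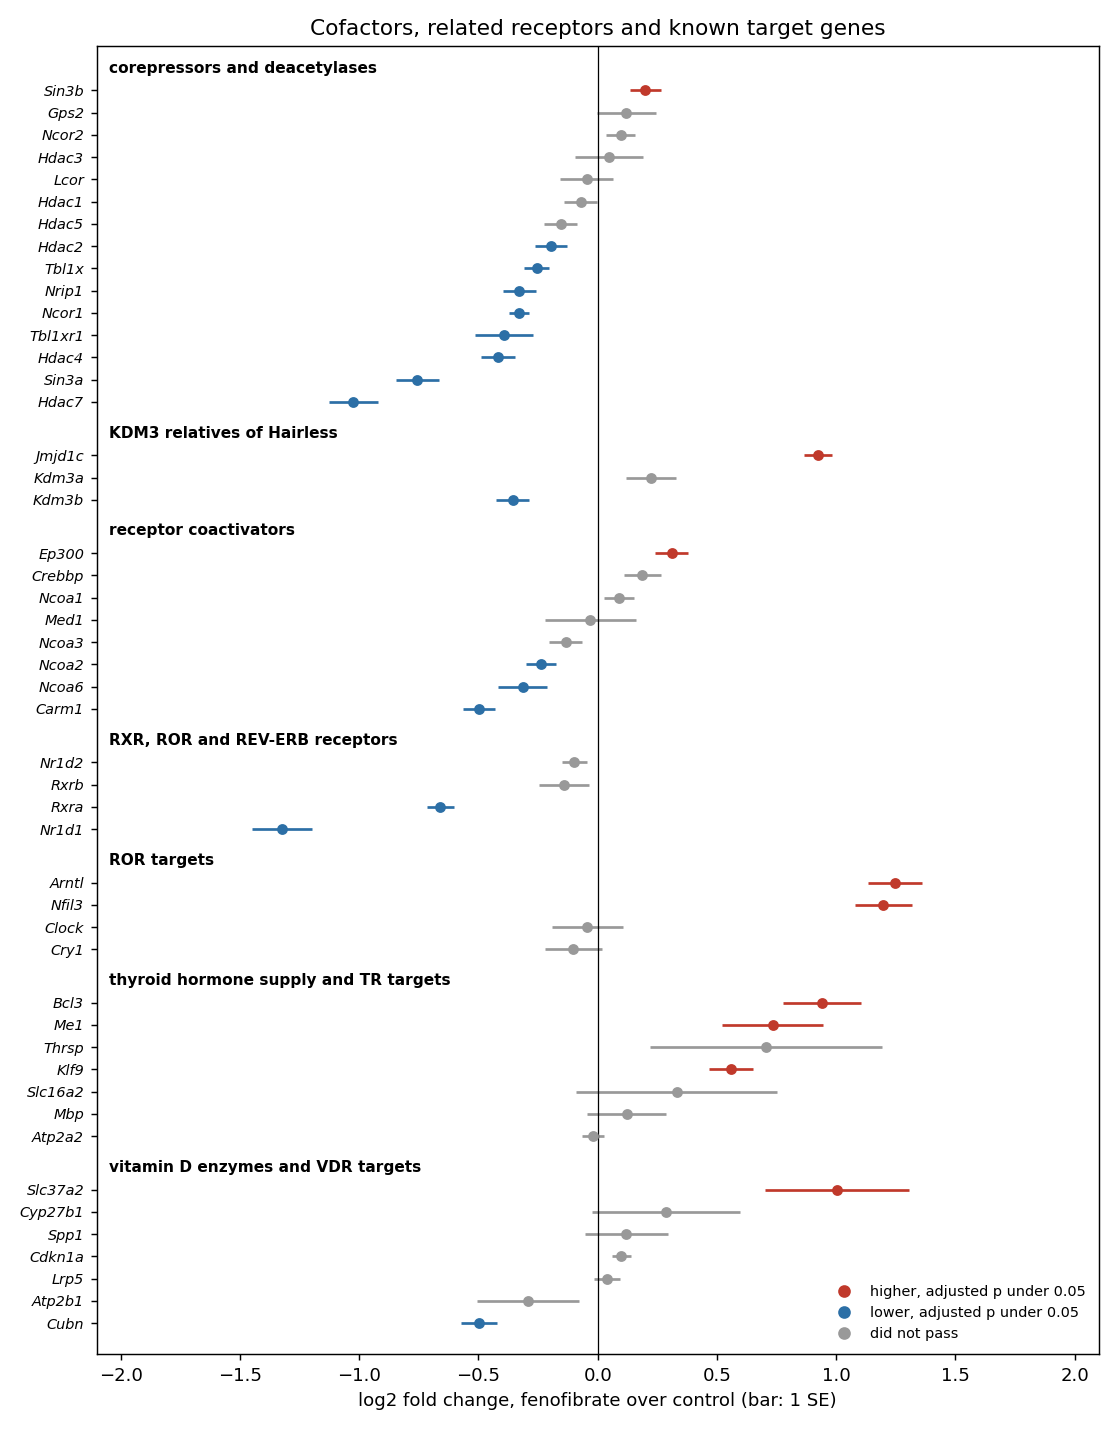
log2 fold change of fenofibrate over control, with 1 SE, for the tested genes reported here from 7 lists of cofactors, related receptors and known targets. Red points passed as higher, blue points as lower and grey points did not pass; Nr1d1 at -1.32 and Hdac7 at -1.02 lie farthest left, and Arntl at 1.25 and Nfil3 at 1.20 farthest right.

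The genes most like Hr across the 6 libraries were found by the root mean square difference of their centred log2 profiles, among 11318 genes with a mean of at least 1 FPKM. As Hr differs mainly between groups, this measure mostly picks genes with the same fold. The closest was Maff, a small Maf factor (difference 0.15), with 85.8, 82.0 and 63.1 normalised CPM with fenofibrate and 5.69, 5.72 and 5.51 in control. It was followed by Nog, the BMP antagonist noggin (0.20), Smad9, a transducer of BMP signals (0.23), Vasn (0.31) and the lens connexin gene Gja3 (0.32). Nog had 361 counts with fenofibrate and 0 in control, which is at least 117-fold higher against a limit of 3 counts over the control group, so its place in this order depends on the prior count of 0.5. Smad9 was 12.3-fold, Vasn 13.1-fold and Gja3 10.3-fold higher. Vasn shares 160 exon bases with Dnaja3.

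**Figure D4:**
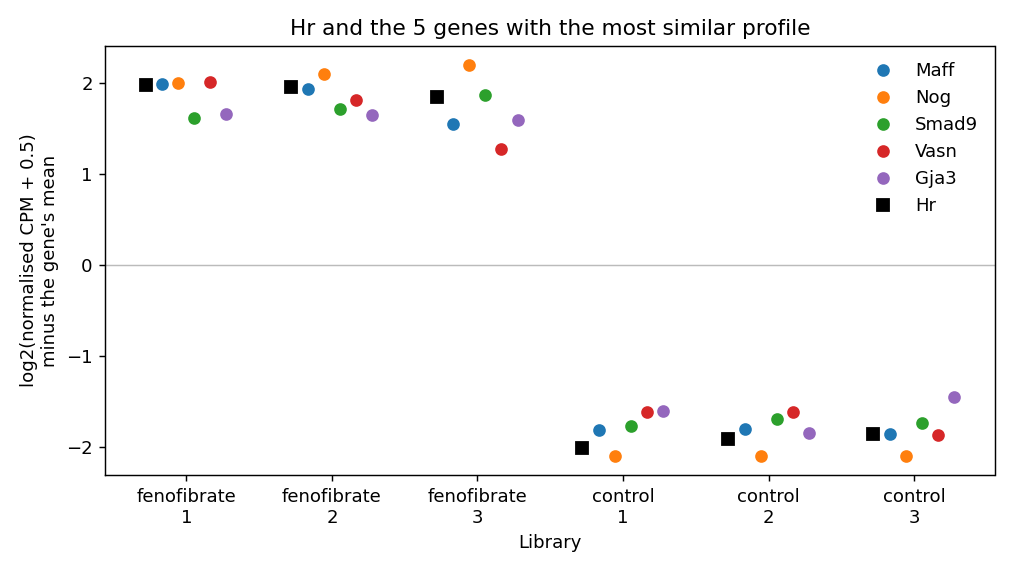
log2 of normalised CPM plus 0.5, each gene centred on its own mean, in the 6 libraries for Hr (black squares) and the 5 genes with the most similar profile. All 6 genes lie above their mean in the 3 fenofibrate libraries and below it in the 3 control libraries.

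Around Hr on chromosome 14, 7 genes lie within 50 kb and 5 of them were tested. The nearest gene upstream, Reep4, ends 3279 bases from Hr and had a log2 fold change of -0.14 ± 0.08 (SE, adjusted p = 0.206, edgeR). The nearest downstream, Nudt18, lies 4089 bases past the end of Hr on the same strand. It rose to 18.98 ± 1.46 normalised CPM with fenofibrate, against 10.9 ± 1.03 in control (SD, n = 3 each), 1.75-fold (adjusted p = 0.001, edgeR). Nudt18 thus changed far less than Hr, and whether its counts hold transcripts that run on from Hr was not tested. Bmp1, Fam160b2 and Dmtn did not pass (adjusted p = 0.946, 0.606 and 0.389, edgeR), and Lgi3 and Sftpc had at most 1 count.

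The promoter table of RefSeq (GRCm38.p6, 250 bases before to 50 after each start) held 4 promoters of Vdr, Rora and Thrb, and those of Hr and Thra were not analysed here. The element AGGTCA, which the P boxes of these receptors are known to read, was searched on both strands. It was found in 16.3% of all 32851 promoters, and in 1 of the 4, a Thrb promoter (chr14:17660710-17661009, plus strand). There the element began 184 bases before the start, in capitals with its surroundings in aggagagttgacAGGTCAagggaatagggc. The match is a description of the letters and not of a bound site.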

How the data were processed

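The deposited table holds raw counts per gene and FPKM for each of 6 libraries. Per the labels' protocols, total RNA was enriched for mRNA before library construction. The submitters' processing notes name HISAT2 2.0.4, StringTie 1.3.0 and GRCm39 without roles, and the counting tool and strand setting are not given in the sources used here. Gene coordinates are those of GRCm38, since 98.7% of the gene IDs found in GENCODE M21 have the same start and end there. The FPKM values were made by the authors. The deposited counts were tested in R 4.3.3 with edgeR 4.0.16 (filterByExpr, TMM, glmQLFit and glmQLFTest, no covariate), with Benjamini-Hochberg adjustment over 13629 genes and a threshold of 0.05. The standard error is the log2 fold change divided by the square root of F. p-values measure the spread between libraries that the labels call biological triplicates. Levels between genes use FPKM, and levels between groups use normalised CPM.

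The 5 genes, the lists and the naming rule were chosen with earlier results of these data known. Named were the 5 genes, up to 3 called genes per list and direction with the largest changes, the 5 genes most like Hr, and genes that overlap one of the 5 or lie within 50 kb of Hr. Of the list genes outside this rule, those that did not pass are given as values. A small number of genes are not reported here and were left out of the lists of related receptors and of thyroid hormone genes after their values were known, so no counts or medians are given for those lists. Alternatives were DESeq2 1.42.0, scaling to library totals, no filter on low counts, a replicate block, limma 3.58.1 on log2 of FPKM plus 0.5 or 0.1, and leaving out each library. Sequences were read with Python 3.11.15 from GENCODE M21 transcripts and the RefSeq promoter table.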

Additional observations from a re-analysis of the deposited data

How the results depend on the processing

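Under the 12 alternatives the log2 fold change of Hr ran from 3.12 (limma on FPKM with a pseudocount of 0.5) over 3.70 (pseudocount 0.1) to 3.99, and was 3.90 to 3.99 when any 1 library was left out. The pseudocount of 0.5 also drew in the low genes, to 0.25 for Vdr, 0.58 for Rora and -0.10 for Thrb; it exceeds the levels of Vdr and Thrb. Leaving out 1 library gave 0.56 to 1.61 for Vdr, 0.73 to 0.85 for Rora, -1.42 to -0.28 for Thrb and -0.004 to 0.19 for Thra, whose sign reversed without fenofibrate replicate 2. The list of corepressors and deacetylases had 9 called genes in the main fit and 6 with no filter on low counts. It had 6 to 8 when 1 library was left out, with 0 or 1 higher and 6 or 7 lower. Coactivators ran from 2 to 4 called genes and vitamin D genes from 1 to 3 when 1 library was left out. The vitamin D list had 1 called gene with limma on FPKM at either pseudocount. The cause of these list changes was not tested. Over all genes the count of calls was 4248 to 5460, and 4540 with the replicate block. Deviations of libraries with the same replicate number correlated at 0.013 to 0.03 across genes, too low to take the numbers as pairs, although every library correlated best with its own number. The block changed the calls of Sin3b, Ncoa6 and Slc37a2 among the named genes. Depth limits Vdr and Thrb, which never exceeded 21 counts in a library.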
